A study of Homo sapiens with 18 samples.

Results

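The semaphorin, plexin, ephrin, netrin and SLIT families, which carry guidance signals between neighboring cells, were followed in MDA-MB-231 cells whose expression of Jagged1 had been altered. The genes were taken by name, as every row whose symbol begins with SEMA3 to SEMA7, PLXNA to PLXND, EPHA or EPHB, EFNA or EFNB, NTN with a digit, NTNG, UNC5 or ROBO, together with NRP1, NRP2 and SLIT1 to SLIT3. This rule gave 75 of the 21411 genes, and no measured value entered it. Of these 75 genes, 42 were above 1 CPM (read counts scaled to the adjusted library size) in at least 9 of the 18 libraries and were tested, along with 12803 genes in all that met this limit. The rule also drew in 5 antisense RNAs, which all fell under the limit, and UNC50 and UNC5CL, which share letters with the UNC5 receptors without being guidance receptors and which both passed.

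MDA-MB-231 is an established mesenchymal-like triple-negative breast cancer cell line with endogenous Jagged1, a ligand of the Notch receptors. Every library came from cells grown for 7 days in 3D Matrigel (2 mg/ml), and the 6 conditions had 3 biological replicates each, with 50000 cells seeded per culture. Jag1WT is the parental line. Jag1KO was pooled from single-cell clones selected after CRISPR-Cas9 cutting in exon 2 of JAG1, so that it is compared with a parental line that had not passed through cloning. Jag1KO + rescue and Jag1KO + ctrl are Jag1KO cells carrying pcDNA3.1 with Jagged1 cDNA or empty pcDNA3.1, both grown under G418. siCtrl and siJag1 are Jag1WT cells transfected with nontargeting or Jag1-targeting siRNA 7 hours before seeding. The 3 comparisons were siCtrl against siJag1, Jag1WT against Jag1KO, and Jag1KO + rescue against Jag1KO + ctrl, called the rescue below, and in each a positive log2 fold change stands for a higher level in the condition with more JAG1.

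Semaphorins are secreted or membrane-bound ligands that are bound by plexins, for class 3 semaphorins usually with a neuropilin as the partner that binds the ligand. Plexins act inside the cell on small GTPases and loosen adhesion, and the EPH receptors, which are tyrosine kinases, answer to ephrins on the next cell and can signal in both directions. Netrins are laminin-like proteins, most of them secreted, and UNC5 receptors and neogenin are partners of some. SLIT proteins are bound by members of the ROBO family. All of these families are known from the growth of axons and are also active in blood vessels and epithelia, where they bear on migration and cell sorting.

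The counts per library summed to between 10330581 and 18327890. JAG1 was at 433, 585 and 522 CPM in Jag1WT and at 116, 205 and 149 in Jag1KO, at 534, 657 and 646 in Jag1KO + rescue and 110, 134 and 147 in Jag1KO + ctrl, and at 441, 626 and 531 in siCtrl and 166, 203 and 131 in siJag1, so that in all 18 libraries JAG1 was on the side its label gives. VIM, CD44, ITGB1 and KRT18, which mark the line, were above 1 CPM throughout. Of 5 genes listed as low in the line, 4 exceeded 1 CPM in at least 1 library. ERBB2 ranged from 32.5 to 60.0 CPM, EPCAM from 5.18 to 8.99, PGR from 0 to 1.77 and CDH1 from 0 to 1.16. ESR1 reached no more than 0.136 CPM. Of the markers of other cells, 1 of 4 endothelial genes (PECAM1), 1 of 4 fibroblast genes (COL1A1), 1 of 4 leukocyte genes (CD68) and 1 of 3 measured neuronal genes (SYT1) exceeded 1 CPM in any library, and the endothelial sum ranged from 1.09 to 4.45 CPM in Jag1KO + rescue and from 6.14 to 16.1 in Jag1KO + ctrl. CD68 was well above that limit throughout, from 88.9 to 208.9 CPM, while PECAM1, COL1A1 and SYT1 reached at most 15.1, 10.04 and 5.02 CPM. CDH5, PTPRC, CD3E, DCN, LUM, STMN2 and RBFOX3 were at 0 in 11 or more libraries. VWF had reads in every library, and TEK, LYZ and PDGFRA were at 0 in 1, 2 and 7 libraries. None of these exceeded 0.927 CPM. Single libraries stood apart most within 3 conditions. The mean log2(CPM + 1) of 97 cell cycle genes was 4.11 in Jag1KO replicate 1 against 5.55 and 5.67 in the other two, 4.41 in Jag1KO + ctrl replicate 3 against 5.72 and 6.09, and 6.07 in siJag1 replicate 2 against 4.32 and 4.41. Replicate 2 was the highest in the other conditions too, by less. It was at 4.91 against 4.14 and 4.10 in Jag1WT and at 5.02 against 4.18 and 4.23 in Jag1KO + rescue. In siCtrl it was at 5.10 against 4.18 and 4.48. In these bulk cultures, fewer cells of one state and less RNA per cell cannot be told apart.

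Each receptor family had RNA of at least 1 member above the limit, and a few genes took most of the RNA of the guidance genes tested. Levels between genes were compared as CPM per kb of the exon length that the deposited RPKM imply. By this measure the neuropilin NRP1 led with a mean of 188.6 CPM per kb over the 18 libraries, followed by the ephrin receptor EPHA2 with 134.4 and the membrane-anchored semaphorin SEMA7A with 113.5. ROBO4 (40.6), SEMA4B (35.5), PLXNA1 (26.6), EFNB2 (25.3) and NTN4 (24.1) came next. The ranges over the libraries of these 5 genes overlapped, so that their order is one of means alone.

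All 9 plexins, all 4 ROBO receptors and both neuropilins passed the limit. Among plexins PLXNA1, PLXNB2 (17.8 CPM per kb) and PLXNA3 (17.5) were highest, and PLXNC1 (0.57) and PLXNA4 (0.36) lowest. Of 20 semaphorins, 11 passed, with SEMA3C (19.9) and SEMA3A (12.3) the highest secreted members. Of the 8 EPHA receptors only EPHA2 and EPHA4 (1.69) passed, and of the 5 EPHB receptors EPHB2 (19.9) and EPHB4 (6.90). Among ephrins, EFNA1, EFNA3, EFNA4, EFNA5, EFNB1 and EFNB2 passed.

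Few genes of the SLIT and netrin families passed. SLIT2 was the one SLIT gene above the limit (8.99 CPM per kb), and NTN4 and NTNG2 the only netrins of 6. UNC5B was the single UNC5 receptor to pass (1.99). NTN1, the netrin best known as a ligand of the UNC5 receptors, had 3 reads in all 18 libraries together.

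**Figure D1:**
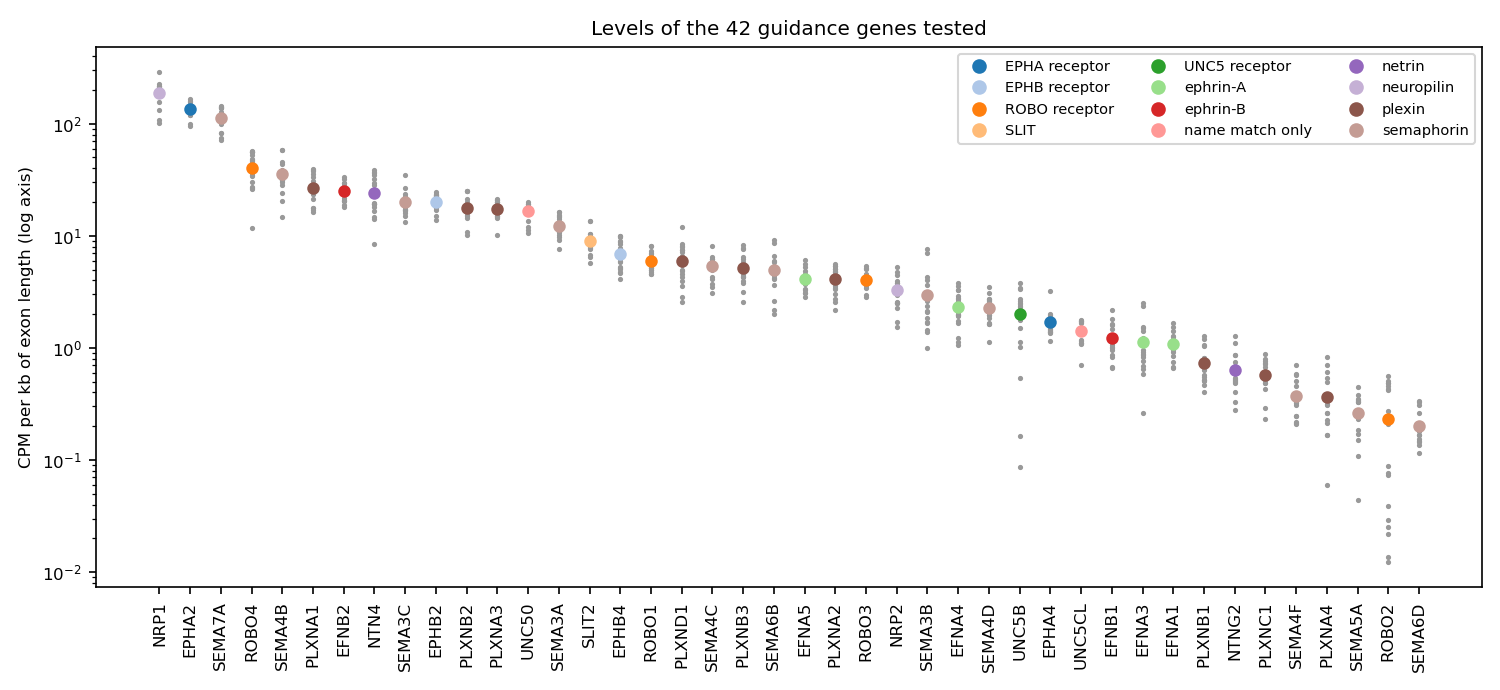
Levels of the 42 guidance genes tested, in CPM per kb of exon length on a log axis, ordered by their mean over the 18 libraries. Gray points are single libraries and colored points the means, colored by family, and NRP1, EPHA2 and SEMA7A stand above 100 CPM per kb while ROBO2 spans the widest range between libraries.

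Of the 33 genes under the limit, 27 did not exceed 1 CPM in any library. The other 6 were EPHA5, EPHB6, SEMA3D, SEMA3E, SEMA4G and SEMA6C, of which EPHB6 and EPHA5 are taken up below. The semaphorins among them had fewer reads in every Jag1KO + rescue library than in any Jag1KO + ctrl library. SEMA4G had 1, 1 and 3 reads against 33, 34 and 16, and SEMA3E 5, 5 and 9 against 40, 13 and 16. SEMA3D had 6, 9 and 9 against 29, 23 and 21, and SEMA6C 12, 8 and 8 against 28, 27 and 17. In the other pairs their reads overlapped or met. Over all genes tested, 15.9% were lower in the rescue without overlap in CPM. Among the antisense RNAs, UNC5B-AS1 lies within UNC5B and had 1 read in all. The sources used here do not state whether the counting used the strand, and reads of both genes cannot be told apart where it did not.

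NTN4, which encodes the secreted basement membrane protein netrin-4, was higher with JAG1 in all 3 pairs. In Jag1WT it was at 121, 135 and 111 CPM, and in Jag1KO at 62.3, 71.8 and 55.0. In the siRNA pair it was at 138, 145 and 132 CPM in siCtrl and at 108, 71.8 and 93.2 in siJag1. The rescued cells held 72.9, 91.1 and 73.6 CPM, and the empty vector cells 52.6, 31.6 and 67.5. In none of the 3 pairs did the groups overlap, although the rescued cells stayed under every Jag1WT library.

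NTN4 rose in Jag1WT against Jag1KO by a log2 fold change of 0.95 ± 0.13 (SE, edgeR quasi-likelihood test, Benjamini-Hochberg FDR = 0.0222). The corresponding values were 0.64 ± 0.27 in the rescue (FDR = 0.153) and 0.62 ± 0.14 for siCtrl against siJag1 (FDR = 0.968), neither of which passed. Averaged over the 3 comparisons in a fit of all 18 libraries, NTN4 rose by 0.73 ± 0.12 (edgeR FDR = 0.00465), and it kept this call without any 1 of the 18 libraries (FDR from 0.0006 to 0.0148). Within Jag1WT against Jag1KO it kept the call in 2 of the 6 fits that left out 1 library, with log2 fold changes from 0.87 to 1.06 and FDR from 0.00563 to 0.137. Of all genes tested, 37 were higher with JAG1 without overlap in all 3 comparisons and 33 were lower, and among the guidance genes NTN4 was the single gene of the first kind and there was none of the second. No difference of the NTN4 effect between comparisons was found, with Jag1WT against Jag1KO minus the siRNA pair at 0.34 ± 0.20, minus the rescue at 0.33 ± 0.31, and the rescue minus the siRNA pair at 0.01 ± 0.32 (edgeR interaction FDR = 1.00, 0.549 and 0.991).

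The NTN4 gene lies on chromosome 12 (chr12:95657807-95791155, minus strand, RefSeq on GRCh38.p14), and both of its RefSeq promoter windows, each running from 250 bases before to 50 after a start, hold GTGGGAA, the core of the motif that the Notch partner RBPJ binds. HES1, a classic Notch target, holds the same letters, and these stretches are shown because NTN4 was the single guidance gene tested whose groups stood apart in the same direction in all 3 pairs. The capitals mark the 7 letters, which begin 60 bases before the first start of NTN4 (chr12:95791156-95791271), 38 bases into the transcript from the second start (chr12:95790715-95790744, minus strand) and 85 bases before the start of HES1 (chr3:194136007-194136126, plus strand).
NTN4 first start: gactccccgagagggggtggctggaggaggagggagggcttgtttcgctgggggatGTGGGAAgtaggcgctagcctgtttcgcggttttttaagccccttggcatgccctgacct
NTN4 second start: cggggcagccagaagagGTGGGAAaagcgg
HES1: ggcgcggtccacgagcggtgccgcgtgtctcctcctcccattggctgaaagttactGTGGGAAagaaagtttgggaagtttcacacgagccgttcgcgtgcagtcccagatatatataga

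GTGGGAA or its reverse complement TTCCCAC was found in 6.25% of all 35116 RefSeq promoter windows. Windows were found for 64 of the 75 guidance genes, and 5 of these genes held a match in at least 1 of them (7.81%, against 7.62% of all genes with a window). Besides NTN4 these were EFNA1, SEMA3B, SEMA6D and SEMA6A-AS1. The match is a description of these letters and not of binding, and the share among the guidance genes was close to that among all genes.

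ROBO2, a receptor for SLIT ligands, went the other way and set the parental libraries apart from all those derived from the knockout. It was at 0.13, 0.23 and 0.26 CPM in Jag1WT and 0.14, 0.41 and 0.30 in siCtrl, which rest on 2 to 6 reads each. The siJag1 libraries held 0.79, 0.76 and 0.91 CPM, from 13 or 14 reads. Jag1KO was at 2.15, 2.86 and 4.49 CPM, Jag1KO + ctrl at 5.82, 5.27 and 4.99, and Jag1KO + rescue at 4.36, 5.02 and 4.75. Every library derived from the knockout was above every parental one, and the rescued libraries remained among the former.

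ROBO2 fell by 3.89 ± 0.46 on the log2 scale in Jag1WT against Jag1KO (edgeR FDR = 0.0129). Since it passed the limit of 1 CPM only through the 9 libraries derived from the knockout, a difference from the parental libraries was built into its being tested. Summed over the libraries, Jag1KO had 117 reads and Jag1WT 9, a ratio of 14.9 with an exact 95% interval of 7.60 to 33.5 that covers counting error only. For siJag1 over siCtrl the ratio was 2.85 (1.47 to 5.96), and the log2 fold change of siCtrl against siJag1 was -1.49 ± 0.42 (FDR = 0.968). The empty vector cells over the rescued cells gave 1.14 (0.948 to 1.37). The average over the comparisons was -1.87 ± 0.20 (edgeR FDR = 0.000125). ROBO2 was the single guidance gene whose fall with JAG1 passed in any comparison, and in Jag1WT against Jag1KO it kept the call in 1 of 6 fits without 1 library (FDR from 0.00127 to 0.099).

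The difference of the ROBO2 effect between Jag1WT against Jag1KO and the rescue was -3.68 ± 0.47 (edgeR interaction, FDR = 0.00489), the rescue value itself being -0.19 ± 0.21 (FDR = 0.540). That between Jag1WT against Jag1KO and the siRNA pair was -2.41 ± 0.68 (FDR = 0.72). Clonal selection and loss of JAG1 cannot be told apart in Jag1KO. ROBO2 lies on chromosome 3 (chr3:75906675-77649964, plus strand), and its 2 promoter windows held neither GTGGGAA nor TTCCCAC.

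**Figure D2:**
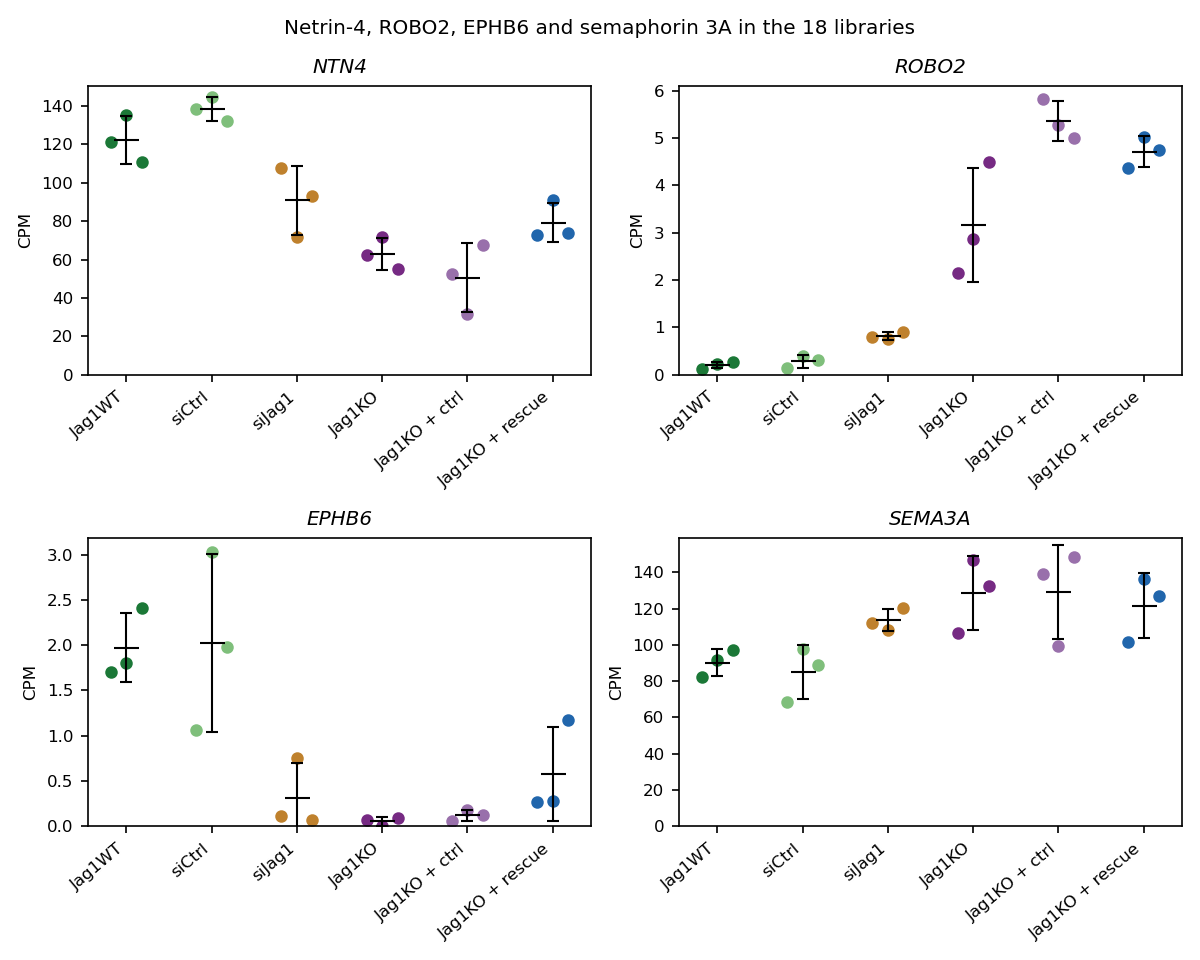
CPM of NTN4, ROBO2, EPHB6 and SEMA3A in the 18 libraries by condition, with points for libraries and bars for the mean and SD (n = 3). NTN4 is higher in Jag1WT, siCtrl and Jag1KO + rescue than in the condition each is paired with, and ROBO2 is above 2 CPM in the 9 libraries derived from Jag1KO and under 1 CPM in the 9 others.

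NTN4 and ROBO2 were the 2 of 42 guidance genes called (FDR under 0.05 and fold over 1.5) in Jag1WT against Jag1KO, where 0.664% of all genes tested were called. ROBO2 entered the tests only through the libraries derived from the knockout, which limits what its call adds here and in the average. No guidance gene was called in the rescue, in which 0.00781% of all genes were called. None was called for siCtrl against siJag1 either, where the share of all genes was 0.0156%. At an unadjusted p under 0.05, edgeR gave 20 guidance genes in the rescue (30.8% of all genes) and 6 in siCtrl against siJag1 (3.86% of all genes). DESeq2 called 10 guidance genes in the rescue and 12.1% of all genes, 1 in the siRNA pair and 0.187% of all genes, and 5 in Jag1WT against Jag1KO and 1.73% of all genes. In the average of the 3 comparisons NTN4 and ROBO2 were again the 2 guidance genes called, against 0.937% of all genes. In both control comparisons, siCtrl against Jag1WT and Jag1KO + ctrl against Jag1KO, no guidance gene and 0.0% of all genes were called by edgeR, and DESeq2 called no guidance gene there either, with 0.0% of all genes in the first and 0.0859% in the second. The unadjusted p was under 0.05 for 1 guidance gene in the first (1.34% of all genes) and for 10 in the second (5.78% of all genes).

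Below the threshold positive values outnumbered negative ones among the guidance genes in Jag1WT against Jag1KO. Of the 42 genes, 28 were positive. The median log2 fold change of the 42 genes was 0.16, against -0.01 for all genes tested. At an unadjusted p under 0.05, 10 guidance genes were higher (4.33% of all genes) and 4 lower (4.42%), 14 in all, where 8.75% of all genes tested were under that limit. The groups did not overlap for 14 guidance genes, against 13.7% of all genes. Of these, 11 were higher in Jag1WT (7.19% of all genes) and 3 lower (6.55%). These 14 held NTN4, PLXNA1, PLXNA2, PLXND1, UNC5B, SEMA4D, SEMA5A, EFNA1, EFNA3, NTNG2 and UNC5CL as higher and ROBO1, ROBO2 and SEMA3A as lower genes. In siCtrl against siJag1 the median was 0.09 against -0.01 for all genes, and the groups did not overlap for 9 guidance genes, against 10.5% of all genes. Of the 42 genes, 27 had the same sign in both comparisons (64.3%), and the share was 61.1% over all genes tested.

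The plexins PLXNA1 and PLXND1 were higher with JAG1 in Jag1WT against Jag1KO and in the siRNA pair, and lower with it in the rescue. PLXNA1, a signaling partner of the neuropilins for class 3 semaphorins, was at 303, 348 and 386 CPM in Jag1WT and 370, 377 and 328 in siCtrl. It was at 242, 244 and 232 CPM in siJag1 and 243, 172 and 209 in Jag1KO. Jag1KO + ctrl held 239, 267 and 231 CPM, and Jag1KO + rescue 173, 160 and 165. The rescued libraries were thus under all those of the empty vector, while siJag1 and Jag1KO were under all Jag1WT and siCtrl libraries.

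PLXND1, the receptor of SEMA3E in blood vessels, had the same order. Its libraries were at 58.1, 51.5 and 84.8 CPM in Jag1WT and 30.5, 25.6 and 34.5 in Jag1KO. They were at 60.1, 53.4 and 56.4 CPM in siCtrl and at 35.0, 39.5 and 32.5 in siJag1. Jag1KO + rescue held 20.2, 18.4 and 28.2 CPM and Jag1KO + ctrl 53.5, 46.7 and 39.9. No 2 groups of a pair overlapped.

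For PLXNA1 the log2 fold changes were 0.73 ± 0.15 in Jag1WT against Jag1KO (edgeR FDR = 0.110), 0.59 ± 0.10 in siCtrl against siJag1 (FDR = 0.322) and -0.57 ± 0.13 in the rescue (FDR = 0.106). For PLXND1 they were 1.10 ± 0.21 (FDR = 0.0774), 0.67 ± 0.12 (FDR = 0.504) and -1.07 ± 0.20 (FDR = 0.106). None of these passed, but the differences between them did. The effect in Jag1WT against Jag1KO exceeded that in the rescue by 1.33 ± 0.20 for PLXNA1 (edgeR interaction, FDR = 0.0165) and by 2.20 ± 0.31 for PLXND1 (FDR = 0.0105), and together with ROBO2 these were the 3 guidance genes with such a difference, against 0.664% of all genes. For ROBO2 a difference from the parental libraries was built into its being tested, as given above.

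The effect in the rescue minus that in siCtrl against siJag1 was -1.18 ± 0.14 for PLXNA1 (edgeR interaction, FDR = 0.0149). It was -1.77 ± 0.24 for PLXND1 (FDR = 0.0156) and -1.45 ± 0.23 for PLXNB3 (FDR = 0.0495), which made 3 guidance genes against 0.0937% of all genes. Without 1 library these calls held in 8, 5 and 2 of 12 fits. No guidance gene was called without siCtrl replicate 1 or 2 or siJag1 replicate 1 or 3, where at most 0.0156% of all genes were. PLXNB3, a receptor for SEMA5A, was at 16.3, 25.0 and 20.0 CPM in Jag1KO + rescue and 49.5, 52.3 and 41.3 in Jag1KO + ctrl. It was at 27.3, 37.1 and 48.3 CPM in Jag1WT, 29.3, 31.2 and 39.7 in Jag1KO, 31.4, 32.4 and 27.9 in siCtrl and 27.1, 24.3 and 28.8 in siJag1, so that the rescue was the single pair whose groups did not overlap. Its log2 fold changes were -1.23 ± 0.20 in the rescue, 0.20 ± 0.12 for the siRNA pair and 0.17 ± 0.22 for Jag1WT against Jag1KO (edgeR FDR = 0.106, 0.968 and 0.878). Between Jag1WT against Jag1KO and the siRNA pair no guidance gene differed by an interaction, against 0.0859% of all genes. The values there were 0.14 ± 0.18 for PLXNA1 and 0.43 ± 0.25 for PLXND1 (edgeR FDR = 1.00 for both).

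The empty vector cells were also compared with the knockout they came from, and no guidance gene passed. Against Jag1KO, Jag1KO + ctrl was 0.62 ± 0.18 higher for PLXND1, 0.50 ± 0.17 for PLXNB3, 1.79 ± 0.45 for EFNA3 and 0.94 ± 0.33 for NTNG2 on the log2 scale, each without overlap between the groups (edgeR FDR = 0.758 for each). The 10 guidance genes at an unadjusted p under 0.05 there were all higher in Jag1KO + ctrl (3.65% of all genes), and the groups did not overlap for 8, against 9.98% of all genes. This comparison shares the Jag1KO + ctrl libraries with the rescue, so that its values and those of the rescue are not independent of each other.

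PLXNA1 and PLXND1 both lie on chromosome 3 (chr3:126983115-127037389, plus strand, and chr3:129555214-129606676, minus strand), and neither promoter window holds GTGGGAA or TTCCCAC. The windows before their starts are shown because both genes passed the same tests of difference between comparisons, and the capitals mark the longest run of letters that they share, which was looked for after their values were known (chr3:126982963-126983076 and chr3:129606767-129606880).
PLXNA1: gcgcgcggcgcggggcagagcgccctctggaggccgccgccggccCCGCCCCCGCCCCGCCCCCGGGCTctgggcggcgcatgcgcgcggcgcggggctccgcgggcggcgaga
PLXND1: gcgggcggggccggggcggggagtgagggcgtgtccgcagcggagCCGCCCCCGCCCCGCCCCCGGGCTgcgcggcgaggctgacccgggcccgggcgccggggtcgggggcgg
The run of 24 bases is made of G and C but for its last letter, and CCCCGCCCC, a shorter stretch within it, was found on either strand of 15.1% of all windows.

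**Figure D3:**
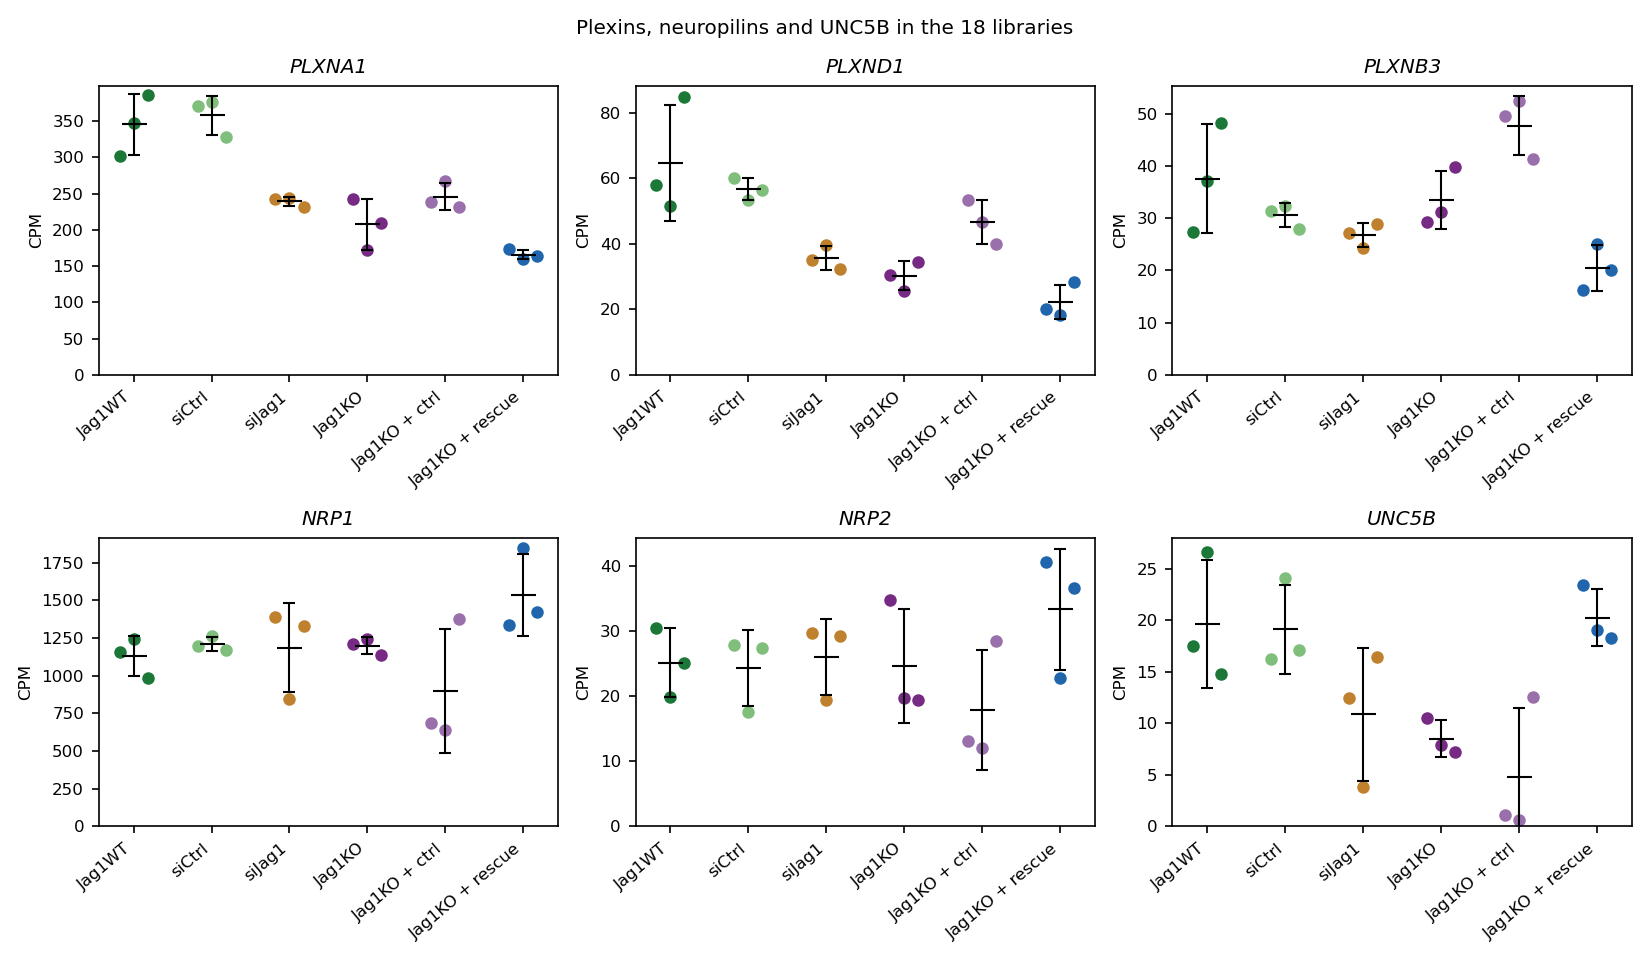
CPM of PLXNA1, PLXND1, PLXNB3, NRP1, NRP2 and UNC5B in the 18 libraries, with bars for the mean and SD (n = 3). PLXNA1 and PLXND1 are higher in Jag1WT and siCtrl than in Jag1KO and siJag1 but lower in Jag1KO + rescue than in Jag1KO + ctrl, and Jag1KO + ctrl replicate 3 and siJag1 replicate 2 stand apart for NRP1 and UNC5B.

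In the rescue most semaphorins and plexins had negative values. Of 11 semaphorins 10 had a negative log2 fold change and 7 an unadjusted p under 0.05, and of 9 plexins 7 were negative and 6 under that limit. The medians were -0.81 and -0.83, against -0.00 for all genes tested. In all, 17 guidance genes were lower (16.3% of all genes) and 3 higher (14.4%) at an unadjusted p under 0.05. The groups did not overlap for 15, against 32.5% of all genes, with 13 lower (15.9%) and 2 higher (16.6%). SEMA6B had the values 8.31, 10.8 and 9.03 CPM in Jag1KO + rescue and 36.0, 38.4 and 17.3 in Jag1KO + ctrl, a log2 fold change of -1.71 ± 0.31 (edgeR FDR = 0.106). PLXNA4 gave -2.05 ± 0.44 and SEMA3B -1.74 ± 0.41 (FDR = 0.106 for both). In the other two comparisons the median of the plexins was positive, 0.17 and 0.16, and that of the semaphorins 0.16 and -0.08.

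Which guidance genes were called in the rescue depended on Jag1KO + ctrl replicate 3, and so did the values of NRP1 and UNC5B. NRP1 was at 1339, 1849 and 1422 CPM in Jag1KO + rescue, and at 683, 641 and 1375 in Jag1KO + ctrl, the last being replicate 3. UNC5B, the netrin receptor, was at 23.4, 19.0 and 18.3 CPM in the rescued cells, at 1.14 and 0.60 CPM in Jag1KO + ctrl replicates 1 and 2 and at 12.5 in replicate 3. For UNC5B this replicate lay between its group and the rescued cells, and for NRP1 it was within the range of the rescued cells. It also had the low level of cell cycle genes given above, 4.41 against 5.72 and 6.09, near the 4.18, 5.02 and 4.23 of the rescued libraries, and the part of this difference in the guidance genes was not tested.

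Without Jag1KO + ctrl replicate 3, edgeR called 18 guidance genes in the rescue, 6 higher and 12 lower, and 28.9% of all genes, 14.0% higher and 14.9% lower. The higher ones were UNC5B (4.53 ± 0.32), NRP2 (1.40 ± 0.26), NRP1 (1.22 ± 0.19), NTN4 (0.91 ± 0.23), EFNB2 (0.74 ± 0.13) and UNC50 (0.67 ± 0.15). The lower ones were PLXNA4 (-2.30 ± 0.40), SEMA6B (-1.99 ± 0.18), SEMA3B (-1.97 ± 0.39), EFNA3 (-1.55 ± 0.30), PLXNB3 (-1.32 ± 0.20), PLXND1 (-1.17 ± 0.20), SEMA4F, PLXNB2, SEMA4D, NTNG2, SEMA3C and PLXNA1 (-0.61 ± 0.12). Both neuropilins thus rose and 5 of 9 plexins fell among these 5 libraries, while the fits without any other library of this pair called none. With all 18 libraries sharing 1 estimate of the spread, 19 guidance genes and 16.7% of all genes were called in the rescue, 4 higher (6.05% of all genes) and 15 lower (10.7%).

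**Figure D4:**
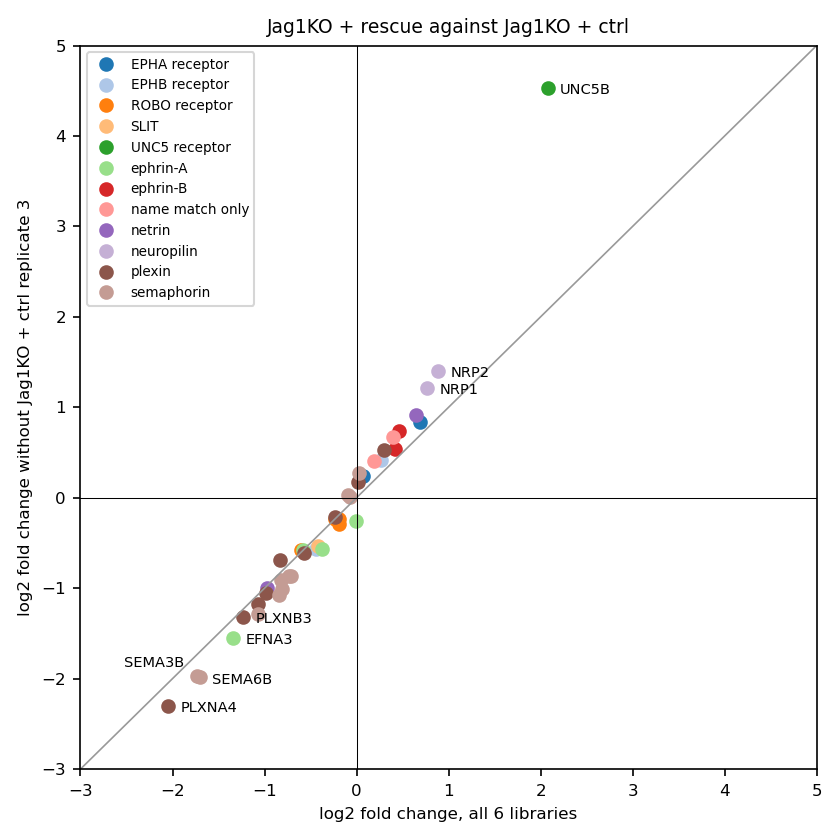
Log2 fold changes of the 42 guidance genes in Jag1KO + rescue against Jag1KO + ctrl with all 6 libraries (horizontal) and without Jag1KO + ctrl replicate 3 (vertical), colored by family, with the line of equal values in gray. UNC5B goes from 2.08 to 4.53 and NRP1 from 0.77 to 1.22, and most genes with values under -0.5 lie on or a little below the line.

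UNC5B also had higher means with JAG1 in the other pairs. It was at 17.5, 26.6 and 14.8 CPM in Jag1WT against 10.5, 7.88 and 7.17 in Jag1KO, a log2 fold change of 1.19 ± 0.26 (edgeR FDR = 0.124). In siCtrl it was at 16.2, 24.1 and 17.1 CPM, and in siJag1 at 12.4, 3.79 and 16.4, the lowest being replicate 2 (0.83 ± 0.45, FDR = 0.968). The average over the comparisons was 1.36 ± 0.41 (FDR = 0.0853), a fold over 1.5 that did not pass the FDR. NRP1 and NRP2 had values near 0 there, -0.09 ± 0.12 and 0.02 ± 0.26 in Jag1WT against Jag1KO and 0.04 ± 0.19 and -0.09 ± 0.23 in siCtrl against siJag1.

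Jag1KO replicate 1, the library with the lowest level of cell cycle genes in its group, weighed in the same way on Jag1WT against Jag1KO. Without it edgeR called 11 guidance genes and 7.3% of all genes, 2.55% higher and 4.76% lower. The 8 higher genes were EFNA3 (1.64), UNC5B (1.37), NTNG2 (1.31), PLXND1 (1.10), NTN4 (0.93), PLXNA1 (0.85), PLXNA2 (0.74) and SEMA4C (0.71), and the 3 lower ones ROBO2 (-4.12), SEMA3A (-0.64) and ROBO1 (-0.59), all as log2 fold changes. In each of the other 5 fits without 1 library, no more than 1 guidance gene was called.

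SEMA3A, the secreted semaphorin that signals through NRP1 and class A plexins, was lower with JAG1 in Jag1WT against Jag1KO and in the siRNA pair. It was at 82.1, 91.7 and 97.0 CPM in Jag1WT and 107, 147 and 132 in Jag1KO. In siCtrl it was at 68.4, 97.6 and 88.7 CPM and in siJag1 at 112, 108 and 121. Neither pair overlapped. The rescue pair overlapped widely, with 102, 136 and 127 CPM against 139, 99.6 and 148. The log2 fold changes were -0.51 ± 0.14, -0.41 ± 0.13 and -0.09 ± 0.19 (edgeR FDR = 0.278, 0.968 and 0.756), and none passed. The rescue value was 0.03 without Jag1KO + ctrl replicate 3 and also without Jag1KO + rescue replicate 1.

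SEMA4B, a membrane-bound semaphorin, was at 143, 232 and 172 CPM in Jag1WT against 95.1, 150 and 123 in Jag1KO. In siCtrl against siJag1 it was at 152, 232 and 150 against 131, 120 and 123 CPM. The siRNA groups did not overlap, while the other two did. Its log2 fold changes were 0.56 ± 0.22 and 0.52 ± 0.17 there and -0.71 ± 0.30 in the rescue (edgeR FDR = 0.486, 0.968 and 0.154).

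SEMA4F, another membrane-bound member at a low level (2.32 to 7.85 CPM), had the values -0.67 ± 0.29, -0.85 ± 0.35 and -0.24 ± 0.35 in Jag1WT against Jag1KO, the rescue and the siRNA pair (edgeR FDR = 0.570, 0.151 and 0.973). The groups of SEMA4F overlapped in each pair, and the value of the siRNA pair was 0.10 without siJag1 replicate 2.

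No EPH receptor or ephrin passed in any of the 3 comparisons. EPHA2 lay between 375 and 658 CPM over the 18 libraries, and its log2 fold changes were -0.14 ± 0.13, 0.07 ± 0.19 and 0.22 ± 0.15 in Jag1WT against Jag1KO, the rescue and siCtrl against siJag1 (edgeR FDR = 0.792, 0.816 and 0.968). EFNB2, a ligand of EPHB4, was at 90.3, 115 and 112 CPM in Jag1WT and 92.4, 107 and 116 in Jag1KO, and these ranges overlapped. EFNA3, a low ephrin, was higher in Jag1WT than in Jag1KO (1.11 ± 0.41) and lower in Jag1KO + rescue than in Jag1KO + ctrl (-1.34 ± 0.34), without passing in either (FDR = 0.455 and 0.106). SLIT2 gave -0.14 ± 0.19, -0.42 ± 0.15 and -0.10 ± 0.17, and ROBO1 -0.47 ± 0.14, -0.19 ± 0.14 and -0.20 ± 0.13 (none passed).

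**Figure D5:**
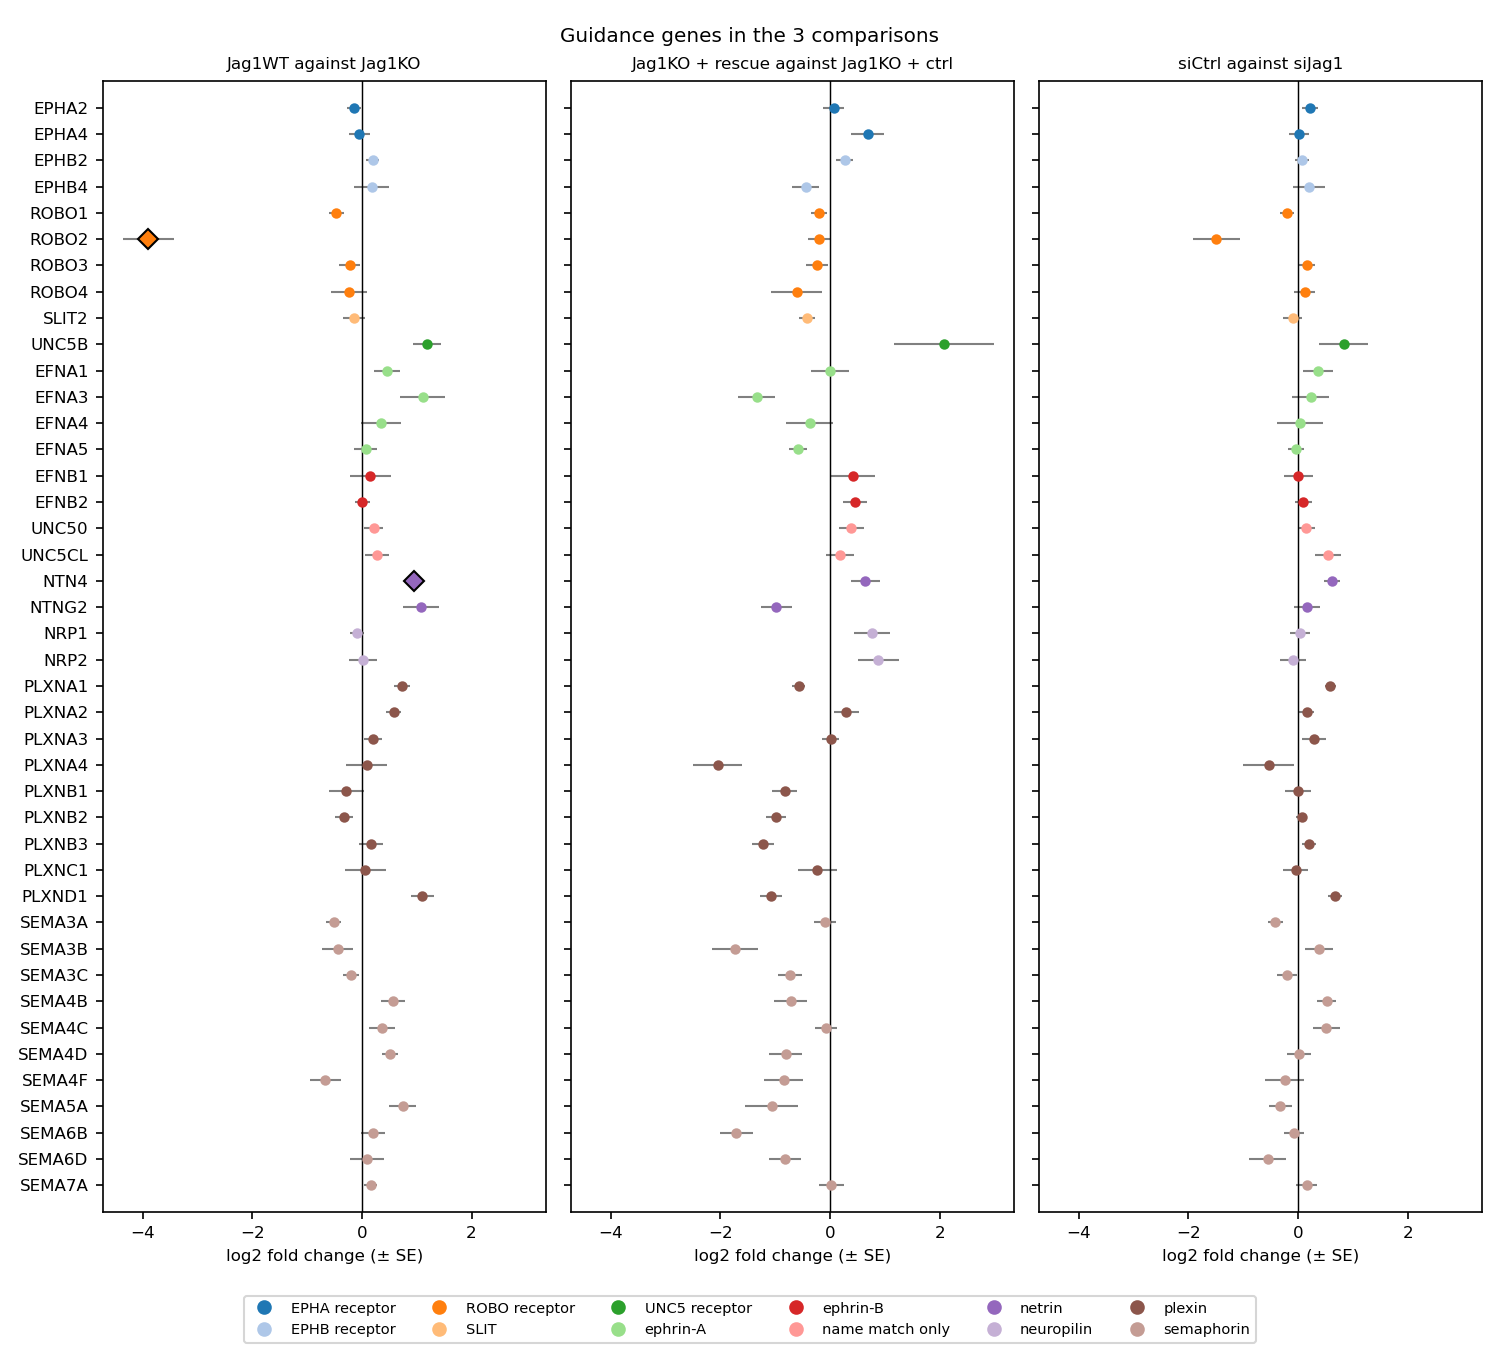
Log2 fold changes with SE of the 42 guidance genes in the 3 comparisons, colored by family, with positive values for more JAG1 and diamonds for called genes. NTN4 and ROBO2 carry the 2 diamonds, both in Jag1WT against Jag1KO, and most plexins and semaphorins lie left of 0 in the rescue.

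EPHB6, a receptor of the EPHB class without kinase activity, was under the limit but had more reads on the side with more JAG1, and it was singled out after its values were seen. Jag1WT had 27, 24 and 37 reads and Jag1KO 1, 0 and 1. siCtrl had 15, 45 and 26 reads and siJag1 2, 14 and 1, and Jag1KO + rescue had 4, 4 and 20 against 1, 3 and 2 in Jag1KO + ctrl. In CPM the groups did not overlap in any of the 3 pairs, by as little as 1.06 against 0.76 in the siRNA pair and 0.27 against 0.18 in the rescue. The ratios of summed reads were 38.3 (exact 95% interval 10.3 to 321, counting error only) for Jag1WT over Jag1KO, 6.06 (3.57 to 10.9) for siCtrl over siJag1 and 5.08 (2.07 to 15.0) for the rescued over the empty vector cells. Single libraries weighed on these ratios, with 2.31 (0.704 to 8.09) for the last without Jag1KO + rescue replicate 3, 21.7 (7.20 to 107.5) for the siRNA pair without siJag1 replicate 2, and 25.5 to 55.9 for Jag1WT over Jag1KO when each of its 6 libraries was left out. With genes above 1 CPM in 3 of the 6 libraries compared, EPHB6 was called in Jag1WT against Jag1KO (edgeR FDR = 0.0122, with 3 guidance genes and 0.704% of all genes called) and not in siCtrl against siJag1 (FDR = 0.969), and it entered the first test only through the Jag1WT libraries.

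EPHA5 also rested on few reads, with 76 and 79 in Jag1KO + ctrl replicates 1 and 2, 58 in siJag1 replicate 2 and 3 to 21 in the 15 other libraries. Those 3 libraries had cell cycle levels of 5.72, 6.09 and 6.07, which Jag1KO replicates 2 and 3 (5.55 and 5.67, with 12 and 21 EPHA5 reads) came near. The part of the cell cycle level in this was not tested.

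Downstream of the receptors, a list of 68 genes for small GTPase regulators, kinases, adaptors and coreceptors of guidance signals had 51 that were tested. None was called in any of the 3 comparisons or in their average by edgeR or by limma. The lowest edgeR FDR of the list in the rescue was 0.106, for KALRN, EVL, DPYSL2, PAK4 and RND3. PLXNA1 and PLXND1 had the same FDR there. Counts for this list by DESeq2, in 1 fit of all libraries or without Jag1KO + ctrl replicate 3 are not given here. At an unadjusted p under 0.05 by edgeR, 3 were higher and 2 lower in Jag1WT against Jag1KO, where 8.75% of all genes were under that limit, and 4 were higher and 11 lower in the rescue (30.8% of all genes). There were 1 higher and 1 lower for the siRNA pair (3.86% of all genes) and 4 higher and 12 lower in the average (26.6%), so that the totals were near the share of all genes. The median log2 fold changes of the list were -0.06, -0.11, 0.00 and -0.05, against -0.01, -0.00, -0.01 and -0.01 over all genes tested.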

How the data were processed

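Processed tables of 18 RNA-seq libraries were used, with groups taken from the sample labels. The authors made stranded libraries of mRNA, mapped reads to hg38 and deposited counts of uniquely mapped reads per gene, for which the processing notes name featureCounts; the aligner and the strand setting are not given in the sources used here. The deposited CPM are these counts over library sizes adjusted by TMM, and the authors' RPKM divide them by 1 length per gene, which gave the exon length. Among the RPKM, 3 columns fit no sample by name and were left out. The 292 rows without a symbol took no more than 0.0442% of any library.

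The main test was the quasi-likelihood F test in edgeR (version 4.0.16, R 4.3.3) with TMM factors, run on the counts of the 6 libraries of each comparison, for genes that passed 1 CPM in 9 or more of all 18 libraries, with Benjamini-Hochberg adjustment over all 12803 genes. Genes with FDR under 0.05 and a fold change over 1.5 were called; differences between comparisons were interaction contrasts over 12 libraries at FDR under 0.05. SE is the log2 fold change over the root of the F statistic. Replicates are separate cultures per the labels, and replicates differed beyond counting noise in every pair (chi-square over its degrees of freedom at least 7.34). On simulated counts for the 12803 genes, the test recovered 88, 63 and 87 of 100 genes changed 2-fold in Jag1WT against Jag1KO, the rescue and siCtrl against siJag1, and 100 of 100 changed 4-fold in each, with 10, 9 and 7 of 12603 unchanged genes called. Genes were drawn independently, and the changed genes were taken from those with a mean above 10 CPM. Their spread followed the trend over all genes, and no library was made to stand apart. Recovery of lower genes, such as ROBO2, and of pairs with a library that stands apart was therefore not measured.

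The genes named by rule with the fold changes of all 3 comparisons were those called in a comparison or in the average, without overlap in the same direction in all 3, with an unadjusted p under 0.05 in the same direction in 2 of 3, or with a difference by interaction (8 genes); members with levels were the highest of each family, and the fold changes of other members (such as UNC5B, the neuropilins, EPHA2 or SEMA6B) were chosen for the text after their values were seen. The members and lists were chosen with earlier results of these data known. Cell cycle genes are the 97 shipped with Seurat (version 5.3.0), added after the data were seen. Alternatives were size factors of the DESeq2 kind, DESeq2 (1.42.0), limma (3.58.1) on log2(CPM + 1), looser filters, a replicate block, 1 fit of all libraries and each library left out; leaving out libraries from the interactions and from the ratios of summed reads was added after the data were seen. The pairing by replicate number was checked from correlations of deviations from group means; for siJag1 with siCtrl they were 0.543, 0.523 and 0.263, and for Jag1WT with siCtrl 0.597, 0.714 and 0.213. Promoter windows were those of RefSeq (GRCh38.p14), matched by gene number.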

Additional observations from a re-analysis of the deposited data

Results flagged for a closer look

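Of the guidance genes, 4 differed in their response to JAG1 between comparisons by an interaction test of edgeR over 12 libraries (FDR under 0.05). The effect in Jag1WT against Jag1KO minus that in the rescue was 1.33 for PLXNA1, 2.20 for PLXND1 and -3.68 for ROBO2 on the log2 scale. PLXND1 and ROBO2 kept this call in all 12 fits without 1 library, and PLXNA1 in 7 of 12. ROBO2 was tested only through the 9 libraries derived from the knockout, which built in its difference from the parental libraries, so that its calls say little about stability. The effect in the rescue minus that in siCtrl against siJag1 was -1.18 for PLXNA1, -1.77 for PLXND1 and -1.45 for PLXNB3. Without 1 library these were called in 8, 5 and 2 of 12 fits, with FDR up to 0.0709, 0.0753 and 0.189, and PLXNB3 was not called with size factors of the DESeq2 kind or by limma (FDR = 0.0538 and 0.0532).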

How the results depend on the processing

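Among the 8 genes named by rule, no fold change with an unadjusted p under 0.05 turned its sign under any alternative run. Of those above that p, some turned without 1 library, such as PLXNB3 in Jag1WT against Jag1KO (from 0.17 to -0.06 without Jag1WT replicate 3) and SEMA4B in the average (from 0.11 to -0.004 without Jag1KO + rescue replicate 2). With DESeq2 the guidance genes called were 5 in Jag1WT against Jag1KO (1.73% of all genes tested), 10 in the rescue (12.1%), 1 in siCtrl against siJag1 (PLXND1, 0.187%) and 4 in the average (3.1%). With every gene that had a read, 6 were called in Jag1WT against Jag1KO (0.825%) and 5 in the average (1.1%), and 4 in the average with genes above 1 CPM in 3 of 18 libraries (1.17%). With all 18 libraries in 1 fit, 4 were called in Jag1WT against Jag1KO (1.01%) and 19 in the rescue (16.7%). Leaving out 1 library gave 0 to 11 in Jag1WT against Jag1KO (11 without Jag1KO replicate 1, with 7.3% of all genes, 1 without Jag1KO replicate 2 and 0 without any other), 0 to 18 in the rescue (18 without Jag1KO + ctrl replicate 3, with 28.9%), 2 to 7 in the average and 0 to 2 in Jag1KO + ctrl against Jag1KO (the highest without the same library, with 6.76% and 2.27% of all genes), and 0 in siCtrl against siJag1. For the differences between comparisons these fits gave 2 to 15 (Jag1WT against Jag1KO minus the rescue) and 0 to 11 (the rescue minus siCtrl against siJag1), again highest without Jag1KO + ctrl replicate 3 (19.9% and 15.1% of all genes), with 0 in the second without siCtrl replicate 1 or 2 or siJag1 replicate 1 or 3. The cause was not tested. With the replicate number as a block, 6 guidance genes were called in Jag1WT against Jag1KO (2.05%), 5 in the average (4.69%) and 6 with a difference between the rescue and the siRNA pair (3.73%). The block called no guidance gene in siCtrl against siJag1 or siCtrl against Jag1WT, as in the main fit. Over all genes its calls went from 2 to 4 in the first and from 0 to 1 in the second. The correlations by replicate number were 0.213 or more in these pairs. In the other pairs at least 1 correlation was under 0.1 (0.634, 0.670 and -0.0101 in Jag1WT and Jag1KO, -0.213, 0.341 and 0.240 in the rescue). Genes under about 1 CPM, such as ROBO2 in the parental libraries, EPHB6 and EPHA5, are limited by their reads.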
